A study of Homo sapiens with 8 samples.

Results

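The E2F family of transcription factors, together with MYBL2 and FOXM1, was measured in human melanomas with and without induction of Omomyc, a MYC-derived inhibitor protein. The members were the 10 genes E2F1 to E2F8, MYBL2 and FOXM1, chosen by the gene symbol that the array's annotation gives each row. Each of the 10 had 1 row among the 17492 genes tested. The tumours came from SkMel147, an established human melanoma line, and were raised subcutaneously in immunodeficient BALB/c nude mice, which lack a normal thymus. Once tumours had reached 100 mm3, mice drank either vehicle (4 tumours) or doxycycline to switch on Omomyc in the tumour cells (4 tumours), and total RNA of tumours taken 7 days later was put on Affymetrix arrays. The labels name 8 biological replicates, 1 tumour per array, and do not give the promoter of the Omomyc construct, whether the line is 1 clone, or the age of the mice. No group received doxycycline without Omomyc, so effects of the drug itself and of Omomyc cannot be told apart.

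E2F proteins bind DNA next to genes needed for entry into S phase, mostly as dimers with a DP partner. E2F1, E2F2 and E2F3 are the activators: the retinoblastoma protein holds them in check until cyclin-dependent kinases phosphorylate it. E2F4 and E2F5 bind the related pocket proteins p107 and p130 and repress in resting cells, E2F6 represses through Polycomb proteins, and the atypical E2F7 and E2F8 bind DNA without a DP partner and shut the same genes down later in the cycle. MYBL2 joins the MuvB core once cells divide and, with FOXM1, switches on the genes of G2 and mitosis. Several members are themselves E2F targets, so the family is wired into its own output.

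The promoters of the 3 activators are shown because all of them hold an exact E2F motif close to the start site. Sequences are RefSeq's, on GRCh38.p14, written in the direction of transcription, and they cover bases -80 to -1 before the annotated start. E2F1 lies on the minus strand at chr20:33686386-33686465, E2F2 on the minus strand at chr1:23531234-23531313 and E2F3 on the plus strand at chr6:20401799-20401878. Capitals mark the E2F letters searched.
E2F1: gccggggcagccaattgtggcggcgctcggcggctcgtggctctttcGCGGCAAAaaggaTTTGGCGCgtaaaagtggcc
E2F2: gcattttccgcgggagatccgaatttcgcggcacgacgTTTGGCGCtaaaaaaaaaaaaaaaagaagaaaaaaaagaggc
E2F3: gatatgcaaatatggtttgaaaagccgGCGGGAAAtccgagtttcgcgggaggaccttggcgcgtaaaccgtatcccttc

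The search covered both strands from 250 bases before to 50 after each start. The E2F motif was TTTCCCGC or TTTGGCGC or TTTGCCGC or TTTCGCGC, and it was present in 3.31% of all 35116 windows of that length. E2F5, E2F8 and FOXM1 had no window and were not searched for any motif. Windows existed for the other 7 of the 10 members, and E2F1, E2F2 and E2F3 held the motif. Beside them, 26 of 45 genes of the G1/S target list described later held it (57.8%), and 3 of 44 genes of the G2/M list (6.82%), against 3.99% of all 27305 genes with a window.

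The E-box CACGTG, the element bound by MYC with MAX, stood in 2 of the 7 members searched. It is shown for a second annotated start of E2F3 at chr6:20403514-20403553 and for MYBL2 at chr20:43666864-43666903, both on the plus strand of GRCh38.p14. Capitals mark the E-box.
E2F3, second start: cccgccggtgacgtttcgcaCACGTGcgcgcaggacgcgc
MYBL2: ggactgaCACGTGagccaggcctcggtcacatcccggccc
The E-box stood in 8.78% of all genes with a window, in 7 of 45 G1/S genes (15.6%) and in 6 of 44 G2/M genes (13.6%). The cell-cycle homology element (CHR; TTTGAA or TTCGAA on either strand), where MuvB binds, stood in 19.5% of all genes, in 33 of 44 G2/M genes (75.0%), in 4 of 45 G1/S genes (8.89%) and in E2F3 alone among the 7 members searched. CCAAT, the site of the factor NF-Y, stood in 39.7% of all genes and in 3 of the 7 members searched (42.9%). It stood in 38 of 44 G2/M genes (86.4%) and in 29 of 45 G1/S genes (64.4%). The forkhead motif, GTAAACA or ATAAACA, was in 8.98% of all genes, in 1 of 44 G2/M genes (2.27%), in 2 of 45 G1/S genes (4.44%) and in 0 of the 7 members. These are matches of letters in a window, and binding was not measured.

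Array medians ran from 5.02 to 5.13 on the log2 scale, and pairs of arrays within a group had correlations of 0.961 to 0.982 over all genes, against 0.933 to 0.955 between groups. Vehicle replicate 2 and doxycycline replicate 1 had the lowest array weights, 0.502 and 0.728. Doxycycline replicate 4 was close to the latter at 0.786, and the others had 1.05 to 1.36. Results are given without vehicle replicate 2 and doxycycline replicate 1 where they matter. The Omomyc transcript has no row of its own; MYC read 5.92, 5.42, 5.92 and 5.26 in vehicle and 5.49, 7.22, 7.74 and 6.78 in doxycycline, so that doxycycline replicate 1 stayed within the vehicle range. Whether the MYC probes also read Omomyc is not known here. Of 6 melanocytic markers none passed the test, which called 6.03% of all genes lower and 4.75% higher. The lineage factors SOX10 (mean 6.53 in vehicle, 6.25 in doxycycline) and MITF (5.22 and 5.07) were measured. The pigment genes MLANA, TYR and TYRP1 averaged 2.93, 2.21 and 2.42 in vehicle, below every array's lower quartile of 3.03 to 3.23. The pigment gene PMEL averaged 3.26 in vehicle, just above that range. Of 5 dedifferentiation markers 1 rose, and AXL (0.63), TNC (0.54), EGFR (0.060) and WNT5A (-0.61) did not pass. NGFR rose by 2.06 ± 0.53 (SE; limma adjusted p = 0.0310), a call lost without vehicle replicate 1 (0.0881), 3 (0.0807) or 4 (0.0680) or doxycycline replicate 1 (0.0687), 2 (0.0661) or 3 (0.0531). The NGFR call was also lost without vehicle replicate 2 and doxycycline replicate 1 together (limma adjusted p = 0.0761). Of 5 fibroblast markers 2 rose, COL1A1 by 1.25 ± 0.28 and COL1A2 by 0.92 ± 0.21 (limma adjusted p = 0.0150 and 0.0183). LUM (1.59; limma adjusted p = 0.0747), PDGFRB (1.41; 0.0584) and DCN (0.94; 0.355) did not pass. The mean of the 5 fibroblast markers was 5.64 to 6.55 in vehicle and 6.89 to 8.19 in doxycycline, highest in doxycycline replicate 1. The COL1A2 call was lost without vehicle replicate 3 (0.0564) or doxycycline replicate 3 (0.0509), and both calls without vehicle replicate 2 and doxycycline replicate 1 together. None of 6 macrophage markers, 6 endothelial, 5 lymphocyte or 5 keratinocyte markers passed, with macrophage means of 3.74 to 4.09 and 4.06 to 4.94. Of the macrophage differences 5 were positive and 1 was negative, and CD14 came nearest at 1.82 ± 0.52 (limma adjusted p = 0.0507). The rows are annotated to human genes while the hosts were mice. How far mouse transcripts reach these rows was not tested, so the marker values are no measure of host-cell content. The part of host cells in the values that follow was not tested, and in bulk tumours fewer cells of a type cannot be told apart from less RNA per cell.

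FOXM1, E2F5, MYBL2, E2F8 and E2F1 fell in doxycycline tumours, and no member rose. The test was limma over all genes with Benjamini-Hochberg adjustment at 0.05; over all genes it called 6.03% lower and 4.75% higher (10.8% in either direction), so that 5 of 10 members against 6.03% is the count in its background. In 6 of 10 members all 4 doxycycline arrays lay below all 4 vehicle arrays, against 8.83% of all genes (17.7% without overlap in either direction). The median difference of the 10 members was -1.22 on the log2 scale, against 0.041 over all genes. The same 5 of 10 fell and 0 rose without vehicle replicate 2, without doxycycline replicate 1 and without both.

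**Figure D1:**
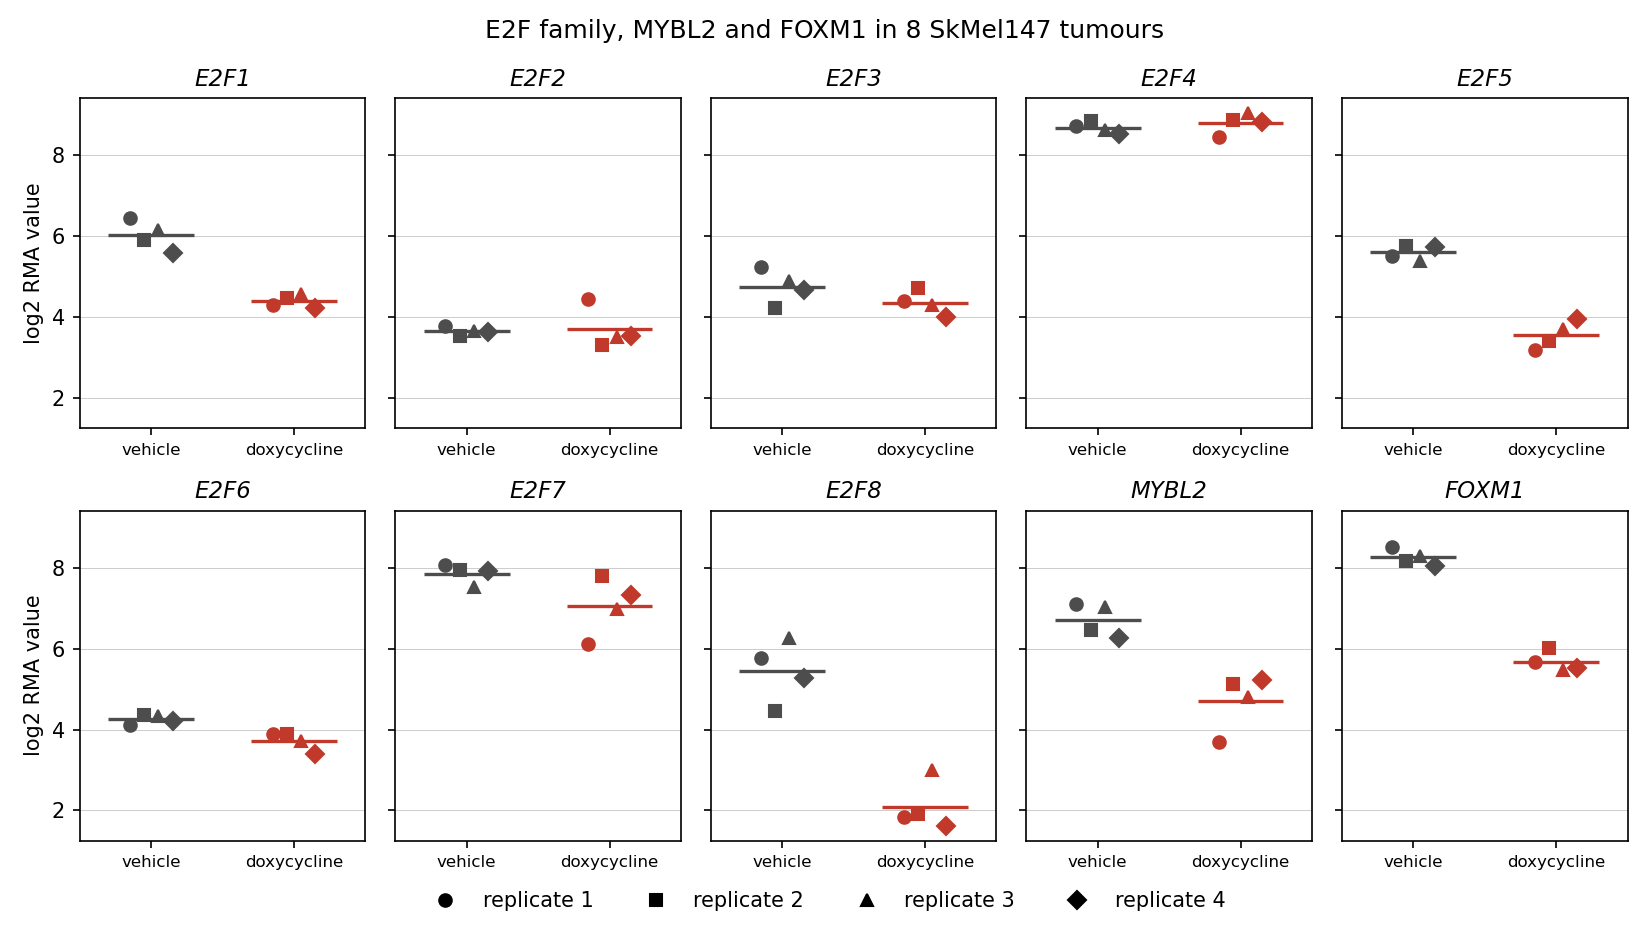
Log2 RMA value of each of the 10 members in every tumour (points), with group means (bars), for 4 vehicle and 4 doxycycline arrays. The groups separate for E2F1, E2F5, E2F6, E2F8, MYBL2 and FOXM1, and they overlap for E2F2, E2F3, E2F4 and E2F7.

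E2F1, an activator of S-phase genes, fell, while the other activators did not pass the test. E2F1 read 6.46, 5.91, 6.15 and 5.59 in vehicle and 4.29, 4.47, 4.57 and 4.22 in doxycycline. The groups were 1.01 apart at their nearest points, and the difference was -1.64 ± 0.21 (SE, n = 4 and 4; limma adjusted p = 0.000708), or 3.12-fold lower. Its vehicle tumours spread more (SD 0.37) than its doxycycline tumours (SD 0.16).

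E2F2, an activator that RB1 also restrains, read 3.77, 3.54, 3.66 and 3.63 in vehicle and 4.45, 3.30, 3.51 and 3.51 in doxycycline. Doxycycline replicate 1 was the highest of the 8 arrays, and the other three doxycycline arrays lay below every vehicle array. The difference was 0.044 ± 0.25 (95% interval -0.50 to 0.59; limma adjusted p = 0.941), and it was -0.21 without that replicate (0.539), so its sign rests on 1 tumour.

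E2F3, an activator amplified in some cancers, read 5.24, 4.21, 4.88 and 4.67 in vehicle and 4.40, 4.71, 4.30 and 4.01 in doxycycline. The groups overlapped. The difference was -0.39 ± 0.24 (95% interval -0.93 to 0.14; limma adjusted p = 0.369). The promoters of all 3 activators carry the E2F letters printed earlier, and 1 of the 3 fell. Whether the letters bear on the differences was not tested, and E2F5, E2F8 and FOXM1, which fell, had no window.

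E2F4, a repressor that works bound to pocket proteins, did not pass. It read 8.73, 8.86, 8.62 and 8.53 in vehicle and 8.45, 8.88, 9.05 and 8.82 in doxycycline, with overlapping groups. The difference was 0.11 ± 0.18 (limma adjusted p = 0.775), and its 95% interval ran from -0.29 to 0.52.

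E2F5, the other repressor of that pair, fell. Its values were 5.51, 5.75, 5.39 and 5.73 in vehicle against 3.17, 3.41, 3.69 and 3.95 in doxycycline, a gap of 1.44 between the groups. The difference was -2.04 ± 0.20 (limma adjusted p = 0.000175), or 4.11-fold lower. In doxycycline E2F5 stayed above the lower quartile of each array, but replicate 1 was close to its own, 3.10. The size of the fall thus also rests on low signals. Within each array E2F5 minus E2F4 lay between -3.23 and -2.80 in vehicle and between -5.47 and -4.87 in doxycycline, so the pair changed unequally, by -2.15 on the log2 scale. This difference of a pair has no test here.

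E2F6, which represses germline genes in somatic cells, lay lower in every doxycycline array but did not pass. It read 4.11, 4.37, 4.32 and 4.21 in vehicle and 3.88, 3.89, 3.72 and 3.39 in doxycycline. The groups were 0.23 apart, and the difference was -0.54 ± 0.18 (95% interval -0.93 to -0.15; limma adjusted p = 0.0835).

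E2F8 showed the lowest difference of the family. It read 5.77, 4.46, 6.27 and 5.27 in vehicle and 1.83, 1.91, 3.01 and 1.62 in doxycycline, with 1.46 between the groups. The difference was -3.35 ± 0.40 (limma adjusted p = 0.000432), or 10.2-fold lower, rank 14 of 17492 from the lowest. Its doxycycline values lay below the lower quartile of their own arrays in all 4 tumours, so the size of the fall rests on dim signals.

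E2F7, the other atypical repressor, read 8.07, 7.94, 7.52 and 7.92 in vehicle and 6.12, 7.79, 6.99 and 7.32 in doxycycline. In 3 of 4 doxycycline tumours it lay below every vehicle tumour, and doxycycline replicate 2 lay among them. The difference was -0.81 ± 0.31 (95% interval -1.50 to -0.11; limma adjusted p = 0.141). Leaving out doxycycline replicate 1 gave -0.50 (limma adjusted p = 0.277), and leaving out doxycycline replicate 2 gave -1.05 (0.0576). Within each array E2F8 minus E2F7 ran from -3.48 to -1.25 in vehicle and from -5.88 to -3.99 in doxycycline.

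**Figure D2:**
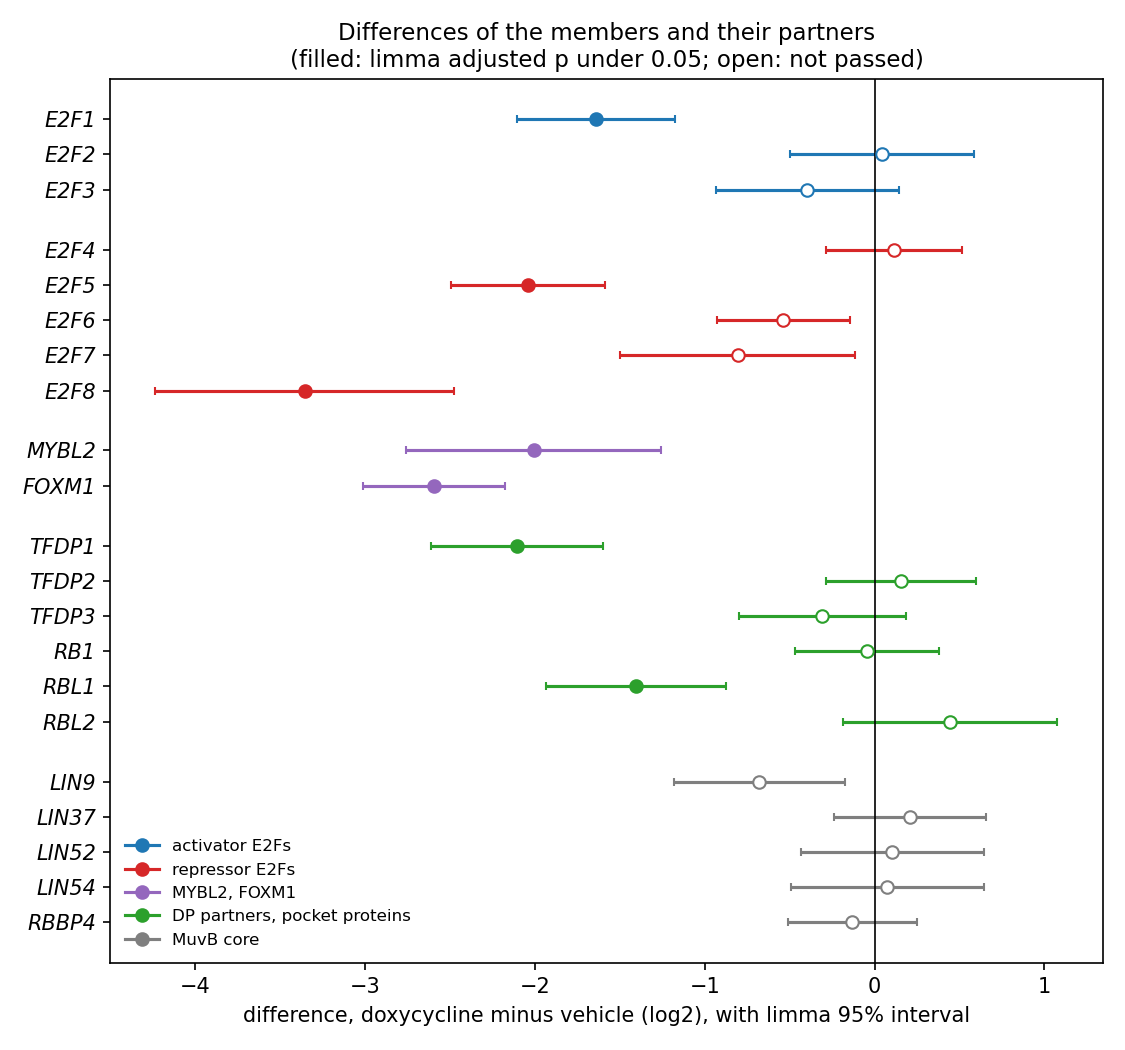
Difference of doxycycline minus vehicle (log2) for the 10 members, the 6 DP partners and pocket proteins and the 5 MuvB genes, with 95% intervals from limma over 4 and 4 arrays. Filled points passed an adjusted p of 0.05: E2F1, E2F5, E2F8, MYBL2, FOXM1, TFDP1 and RBL1.

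Set side by side, 1 of 3 activators (33.3%) and 2 of 5 repressors (40%) fell, against 6.03% of all genes. E2F2, like E2F6 and E2F8 among the repressors, is one of the dimmest 40% of genes. It averaged 3.65 in vehicle and 3.69 in doxycycline, near the arrays' lower quartiles of 3.03 to 3.23. Its part in the activator mean therefore rests on dim signals. The mean of the activators was 4.81 ± 0.28 (SD, n = 4) in vehicle and 4.15 ± 0.19 in doxycycline, and that of the repressors 6.37 ± 0.077 and 5.04 ± 0.26. The differences of these means were -1.32 for repressors and -0.66 for activators, over members that include genes not called. For E2F7 and E2F8 the mean differed by -2.08, and for E2F4 and E2F5 by -0.96.

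The activator mean minus the repressor mean was -1.28, -1.73, -1.53 and -1.70 in vehicle and -0.31, -1.02, -1.16 and -1.11 in doxycycline. All 4 doxycycline arrays lay above all 4 vehicle arrays, and doxycycline replicate 1 lay furthest up. The difference was 0.66, and it was 0.46 to 0.75 with each array left out in turn, lowest without doxycycline replicate 1. E2F1 carries most of the activators' shift and E2F5 and E2F8 most of the repressors', so the mean describes unequal members. Against E2F4 and E2F5 alone, the activator mean overlapped between groups (-2.75 to -1.96 in vehicle, -2.47 to -1.43 in doxycycline, difference 0.30). Against E2F7 and E2F8 alone it did not, with a difference of 1.42, and E2F8 was dim in all 4 doxycycline tumours. No p is given for a score over chosen genes.

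**Figure D3:**
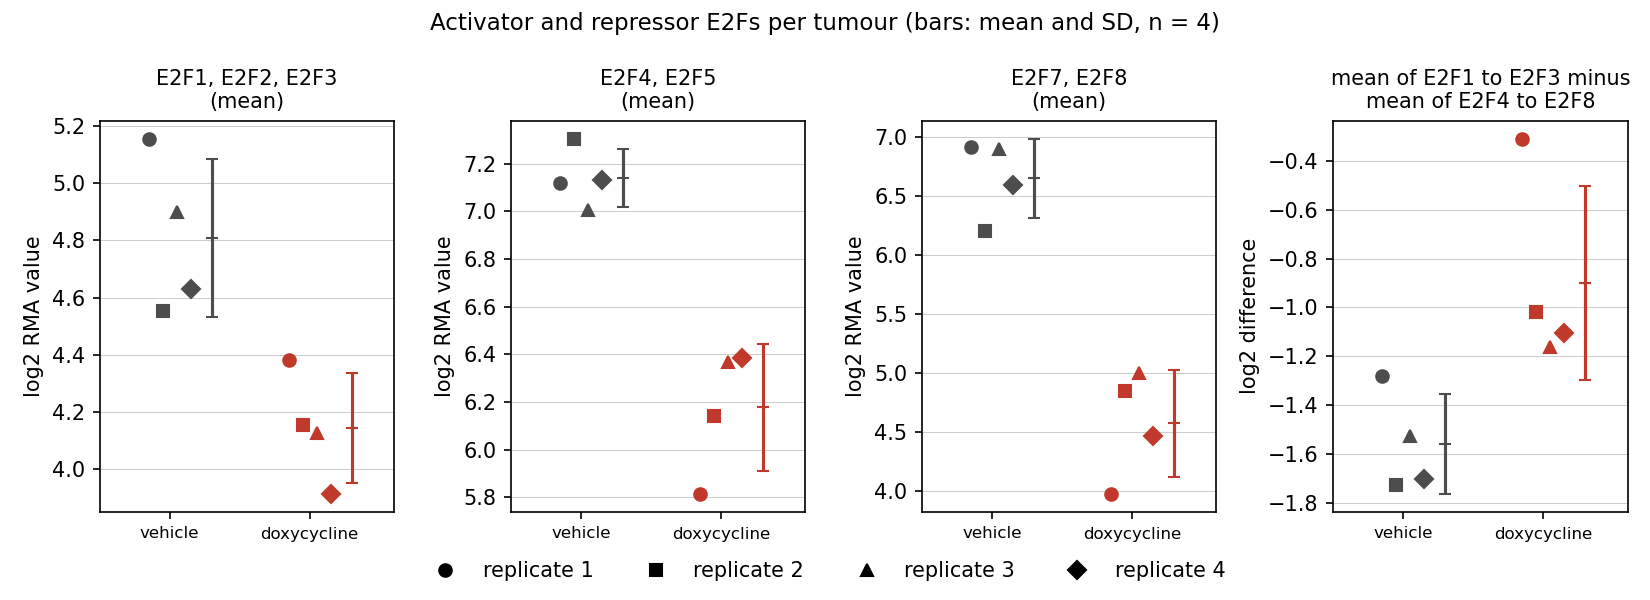
From left to right, mean log2 RMA value of E2F1 to E2F3, of E2F4 and E2F5, and of E2F7 and E2F8, and the mean of E2F1 to E2F3 minus that of E2F4 to E2F8, in each tumour (points, shaped by replicate number) with group mean and SD (bars, n = 4). The groups separate in all 4 panels, and doxycycline replicate 1 has the highest balance, at -0.31.

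MYBL2, the MYB protein of dividing cells, fell. It read 7.11, 6.46, 7.03 and 6.27 in vehicle and 3.68, 5.12, 4.81 and 5.23 in doxycycline, a gap of 1.03. The difference was -2.01 ± 0.34 (limma adjusted p = 0.00379), or 4.02-fold lower, and -1.66 without doxycycline replicate 1, the lowest array. Its relatives MYB (-1.14 ± 0.35; 0.0684) and MYBL1 (1.16 ± 0.62; 0.291) did not pass in limma. MYB passed without vehicle replicate 4 (limma adjusted p = 0.0192) and under limma's trended, robust prior (0.0460), and MYBL1 without vehicle replicate 2 and doxycycline replicate 1 together (0.0255). In doxycycline MYB averaged 2.17, below every array's lower quartile.

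FOXM1, the forkhead factor of G2 and mitosis, had the smallest p of the 10. It read 8.53, 8.18, 8.30 and 8.05 in vehicle and 5.68, 6.02, 5.47 and 5.51 in doxycycline, with a gap of 2.03 between the groups. The difference was -2.60 ± 0.19 (limma adjusted p = 3.99e-05), or 6.04-fold lower, and its p ranked 17 of 17492. None of the 4 FOXO relatives passed, with differences from 0.16 for FOXO3 to 0.60 for FOXO1.

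Of the DP partners and pocket proteins 2 of 6 fell (33.3%) and 0 rose (median -0.18). Over all genes 6.03% fell and 4.75% rose. TFDP1, the main dimer partner of E2Fs, read 8.39, 8.09, 8.27 and 8.16 in vehicle and 6.22, 6.72, 5.80 and 5.74 in doxycycline. The groups did not overlap, and the difference was -2.11 ± 0.23 (limma adjusted p = 0.000279). RBL1, which encodes p107, read 6.93, 6.52, 7.17 and 6.60 in vehicle and 5.45, 5.15, 5.95 and 5.05 in doxycycline, a difference of -1.40 ± 0.24 (limma adjusted p = 0.00385). TFDP2 (0.16 ± 0.20), TFDP3 (-0.31 ± 0.22), RBL2, which encodes p130 (0.44 ± 0.29), and RB1 (-0.045 ± 0.19) did not pass. TFDP3 was dim, with means of 2.20 in vehicle and 1.89 in doxycycline, below every array's lower quartile.

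None of the 5 MuvB core genes passed (median 0.076), against 10.8% of all genes in either direction. LIN9, a subunit that contacts MYBL2, came nearest at -0.68 ± 0.23 (limma adjusted p = 0.0895), and it passed without vehicle replicate 2 (0.0281) and with array weights (0.0354). LIN37, LIN52, LIN54 and RBBP4 lay between -0.13 and 0.21.

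Of 11 measured genes of the Polycomb complex that holds E2F6, 3 fell (27.3%) and 1 rose (9.09%), with a median of -0.18. Over all genes 6.03% fell and 4.75% rose. CBX3, a heterochromatin protein, fell by 1.10 ± 0.22, MGA, a MAX-binding scaffold, by 1.24 ± 0.29, and HDAC2, a histone deacetylase, by 0.80 ± 0.18 (limma adjusted p = 0.00932, 0.0205 and 0.0186). RING1, a ubiquitin ligase, rose by 0.83 ± 0.19 (0.0204). The limma call for HDAC2 was lost without vehicle replicate 1 (0.0526) or 3 (0.0582), with arrays centred on ribosomal proteins (0.0892) and under a block on replicate number (0.0587). The limma call for MGA was lost without vehicle replicate 3 (0.0651) or 4 (0.0572) or doxycycline replicate 4 (0.0507), and under that block (0.0568). The limma call for RING1 was lost without vehicle replicate 1 (0.0601) or doxycycline replicate 3 (0.0538), and without vehicle replicate 2 and doxycycline replicate 1 together (0.0796). A test of a fold of at least 1.5 ended the calls of all 4 genes. Of 12 germline genes that E2F6 is known to repress, 0 fell and 0 rose, with a median of -0.022. In both groups 9 of the 12 averaged below the lower quartile of every array, so the count rests mainly on the other 3.

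Of 15 measured genes that control pocket-protein phosphorylation, 4 fell (26.7%) and 1 rose (6.67%), with a median of 0.011. Over all genes 6.03% fell and 4.75% rose. The S-phase partners fell: CCNA2 by 2.78 ± 0.26, CCNE2 by 2.14 ± 0.25 and their kinase CDK2 by 1.78 ± 0.23. The growth-factor-regulated cyclin CCND1 fell by 1.58 ± 0.22 (limma adjusted p = 0.00123) and its relative CCND3 rose by 0.83 ± 0.18 (0.0137). CCNE1, the paralog of CCNE2, did not pass (0.39 ± 0.21; limma adjusted p = 0.295). The kinase inhibitor CDKN1A read 8.20, 7.98, 8.19 and 8.06 in vehicle and 7.73, 9.68, 9.00 and 8.80 in doxycycline. Doxycycline replicate 1 was the lowest of all 8 and the others lay above every vehicle array; the difference was 0.69 ± 0.34 (limma adjusted p = 0.247), and 1.05 without that replicate (0.0207).

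The E2F turnover list holds ubiquitin ligases and regulators that remove E2F proteins or act on their destruction. Of its 5 measured genes 4 fell (80%, against 6.03% of all genes). They were CDC20 (-2.16 ± 0.26), FBXO5 (-1.54 ± 0.21), CCNF (-1.25 ± 0.24) and SKP2 (-0.99 ± 0.20), and FZR1 did not pass (-0.17 ± 0.17).

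The G1/S targets of E2F fell in 40 of 51 measured genes (78.4%, against 6.03% of all genes) and rose in 0, with a median of -1.24. By smallest p they were led by RRM2, which makes deoxyribonucleotides (-3.28 ± 0.20), UHRF1, which maintains DNA methylation (-2.30 ± 0.18), TYMS, thymidylate synthase (-1.94 ± 0.19), CDC45, a helicase subunit (-2.10 ± 0.21), and GMNN, a licensing inhibitor (-2.36 ± 0.24). Among the 11 that did not pass were RPA2 (0.13), MCM3 (-0.26) and RPA3 (-0.43), the members with the largest p. CCNE1 and CCNE2 are also in the list of pocket-protein control, so the fall of CCNE2 counts in both lists.

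The G2/M targets of MYBL2-MuvB and FOXM1 fell in 49 of 50 genes (98%, against 6.03% of all genes). In this list 0 rose, and the median was -2.34. By smallest p they were the motor proteins KIF4A (-3.00 ± 0.18) and KIF2C (-2.80 ± 0.20), the spindle checkpoint protein MAD2L1 (-2.52 ± 0.18), the midzone protein PRC1 (-2.80 ± 0.21) and the mitotic kinase CDK1 (-2.98 ± 0.24). The gene that did not pass was the helicase PIF1 (-0.086 ± 0.29). CDC20 and CCNF are in this list and in the turnover list; without them 47 of 48 fell.

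Of 7 measured apoptosis genes that E2F1 is known to switch on, 0 fell and 1 rose (14.3%, against 4.75% of all genes). PMAIP1, which encodes NOXA, rose by 1.07 ± 0.22 (limma adjusted p = 0.0100). The PMAIP1 call was lost in limma's test of a fold of at least 1.5 (adjusted p = 0.426). TP53INP1 lay at 1.01 ± 0.33 (0.0793) and passed in limma without vehicle replicate 4 (0.0183), with ribosomal centring (0.0258), without the dimmest 40% of genes (0.0489) and under the trended, robust prior (0.0458). The median of the 7 was 0.25.

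The genes whose pattern over all 8 arrays was most like a member's are given by Pearson's r, as a description in which both groups' means take part. They were HMGB3 (0.998), MAD2L1 (0.995) and RFC4 (0.994) for FOXM1, HMMR (0.993), NUF2 (0.992) and CCT8 (0.991) for E2F8, ACAT2 (0.989), H2BC7 (0.988) and UBE2T (0.987) for E2F1, and PA2G4 (0.994), BMAL2 (0.987) and DCXR (0.982) for MYBL2. All 12 fell. With group means removed, other genes led: MTRFR (0.971) for E2F1, TAS2R50 (0.985) for E2F8, SPOCK1 (0.989) for MYBL2 and NIBAN2 (0.981) for FOXM1, none of which passed the test. Each r is the highest of many genes over 8 arrays.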

How the data were processed

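Total RNA of 8 tumours was measured on 1 Affymetrix array each. The authors' deposited values are log2 expression, summarised with RMA according to their processing notes. This method equalises the arrays, which would partly remove any change common to most transcripts. The sources used here name no software version or probe definition. Of 18569 rows, 17511 carried 1 gene symbol and 1058 none; where a gene had several rows (17 genes) the brightest was used, giving 17492 genes, with no filter on dim rows.

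Groups were compared with limma 3.58.1 (lmFit, eBayes, two-sided) in R 4.3.3, with Benjamini-Hochberg adjustment over all genes. Differences are doxycycline minus vehicle on the log2 scale, and a fold is 2 to the power of the difference. The script was tested on simulated data. Members and lists were chosen with earlier results of these data known, so lists are described by counts and medians only.

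All members were named; any gene of the partner, MuvB, relative, turnover, kinase-control and E2F6-complex lists could be named; further named were up to 5 called members of other lists by smallest p and 3 by largest p, and the most alike genes of 4 members. Alternatives changed scaling, filter, rows, variance prior, weights, block, minimal fold and arrays. The labels state no pairing by replicate number. Deviations from group means correlated at -0.16 to 0.035 between arrays of the same number. That shows no sign of pairing but cannot settle how the samples were handled. A planned description of protein features was not run. The number of arrays limits the precision.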

Additional observations from a re-analysis of the deposited data

Results flagged for a closer look

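In 17 of 354 groups of 4 arrays checked, the highest or lowest array stood apart from the other 3 by Dixon's criterion, which chance reaches in about 1 of 20 groups, and 0 of the 20 groups of single members did. The balance of activator minus repressor E2Fs was -0.308 in doxycycline replicate 1, against -1.16 to -1.02 in the others. Also in doxycycline replicate 1, MYB read 1.675, RBBP4 6.835 and POLD1, a DNA polymerase subunit, 5.009. In vehicle replicate 2, the pocket protein RBL2 read 5.883 against 7.06 to 7.25 in the others, and MYBL1 3.353 against 5.37 to 5.55. The same array read 5.807 for LIN52, 7.665 for RYBP, 7.406 for RFC3, 7.431 for CENPF, 5.410 for NEK2 and 6.562 for GAS2L3. It held 8 of the 17. The remaining were TACC3 at 7.490 in vehicle replicate 1, SLBP at 6.601 in vehicle replicate 4, KIF11 at 5.809 in doxycycline replicate 2, FZR1 at 6.705 in doxycycline replicate 3 and ECT2 at 3.767 in doxycycline replicate 4.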

How the results depend on the processing

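E2F1, E2F5, E2F8, MYBL2 and FOXM1 fell under every alternative in which they were tested, and no member rose in any of the 19. With the dimmest 40% left out, 7 members were tested (not E2F2, E2F6 or E2F8) and 4 fell. The sign of E2F2 turned with array weights (-0.060) and without vehicle replicate 2 and doxycycline replicate 1 together (-0.25), and ranged from -0.21 to 0.18 with each array left out. RB1 turned to 0.18 when arrays were centred on ribosomal proteins, and ranged from -0.15 to 0.075 with each array left out. PIF1 turned to 0.14 under that centring, 0.057 with array weights and 0.17 without those 2 arrays, and ranged from -0.29 to 0.20 with each array left out. None of these was called, and the cause was not tested. Ribosomal centring moved the median of all genes from 0.041 to 0.27, left 701 genes lower and 1800 higher (28.0% of calls lower, against 55.9%), and kept 5 members lower. The replicate block called 791 lower and 502 higher, with 5 members lower. A test of a fold of at least 1.5 called 339 lower and 94 higher and 19 of the G1/S targets. Besides the E2F6-complex genes given earlier, that test ended the calls of RBL1, CCND3, CCNF, SKP2, PMAIP1, NGFR, COL1A1 and COL1A2. With each array left out, 503 to 727 genes rose and 32 to 38 G1/S targets fell. Dim signals limit E2F2, E2F5 in doxycycline, E2F8, TFDP3, MYB and the germline genes, among others.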
